A study of Mus musculus with 4 samples.

Results

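Rod photoreceptors and retinal ganglion cells of the mouse were compared gene by gene, first in the level of each gene and then in which of its isoforms made up that level. The comparison used the Rod and RGC columns of a table of long-read isoform counts. A gene entered when it had at least 100 counts in each column. Of 16702 gene identifiers 2439 passed, 2418 with an Ensembl identifier and 21 named only by their position. They comprised 5755 of 44325 isoforms, and 1504 of the genes had 2 or more isoforms.

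All mice were male wild-type C57BL6/J animals with no transgene. Of the 4 retinal libraries, 2 had no enrichment, the first at postnatal day 40 and the other with no age in its label. A library at postnatal week 8 is labelled CD73 enrichment, and a library at postnatal month 4 is labelled CD90.2 enrichment. Photoreceptors carry CD73 on their surface, and the protocol describes removal of CD73-positive cells. CD90.2 is the product of Thy1, and cells that carry it were retained. Each column is 1 pooled value per class with no library named, so there are no replicates and no test, and a difference between the classes cannot be told apart from a difference in age, enrichment or library between their cells. Values were therefore read by size, with exact 95% intervals that cover counting error only. The Rod column held 55437340 counts and the RGC column 3509890. The minimum of 100 counts was thus 1.80 CPM in rods and 28.5 CPM in ganglion cells, where CPM is the count after scaling each column to a total of 1000000, which limits how much higher in rods a gene can be seen to be.

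Rods turn light into an electrical signal in an outer segment, a modified cilium stacked with membrane discs, and pass it on through a ribbon synapse close to the cell body. Ganglion cells collect the output of the retina and carry it to the brain as action potentials along the axons of the optic nerve. Photoreceptors are known for a glycolytic metabolism and for exons that are spliced in almost nowhere else, and neurons with long axons for their neurofilaments and tubulins.

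The markers of both classes followed the labels. The 8 rod markers summed to 75930 CPM in rods and 0.570 CPM in ganglion cells, where 7 of the 8 were at 0 and Gngt1 had 2 counts. The 8 ganglion cell markers summed to 119 CPM in rods and 17834 CPM in ganglion cells, and none was higher in rods. The Rod column also held markers of other cells, with 1914 CPM for 6 cone genes, 1294 CPM for 6 Müller glia genes, 2783 CPM for 4 erythrocyte genes and 569 CPM for 6 microglia genes. The same lists summed to 0.285, 68.7, 2.56 and 8.83 CPM in the RGC column. For 6 bipolar genes the sums were 861 CPM in rods and 1.99 CPM in ganglion cells. The RGC column had the higher sum for 6 amacrine genes, with 41.6 against 13.2 CPM, although 2 of the 6, Gad1 and Slc6a9, were higher in rods. Its sum was also the higher for 3 horizontal cell genes. Of these only Calb1 was detected there, with 33.9 CPM against 11.98 CPM in rods. All 4 astrocyte markers found in the table were at 0 in the RGC column. The part of such RNA in the differences described here was not tested.

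Most genes above the minimum in both classes were at levels within a 2-fold range of each other. The larger differences were mostly towards ganglion cells, a direction that the unequal minimum favours. At a log2 ratio of 1 or more in size, 289 of 2439 genes (11.8%) were higher in rods and 820 (33.6%) were higher in ganglion cells, while 1330 lay between. The median log2 ratio of rods over ganglion cells was -0.44, with quartiles of -1.44 and 0.36 and a range from -8.27 to 7.37. A log2 ratio of 4 or more in size was reached by 146 genes towards ganglion cells and 9 towards rods. A gene below 28.5 CPM in rods could enter only if it was higher in ganglion cells, so the minimum sets part of this direction. The interval of the ratio included 0 for 219 genes. In bulk columns such as these, fewer cells with an RNA and less of it per cell cannot be told apart.

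The balance of the calls moved with the scaling and with the minimum. Of the called genes, 26.1% were higher in rods when columns were scaled to their totals, 36.6% by a trimmed mean of M-values, 30.6% by the median of ratios and 44.9% when scaled to the counts on these 2439 genes. These genes held 70.4% of the rod counts and 95.7% of the ganglion cell counts. The trimmed mean moved every log2 ratio by 0.25 and the median of ratios by 0.11. With the same CPM minimum in both columns, 1968 genes remained, of which 289 were higher in rods and 408 in ganglion cells, so that 41.5% of the calls were towards rods.

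**Figure D1:**
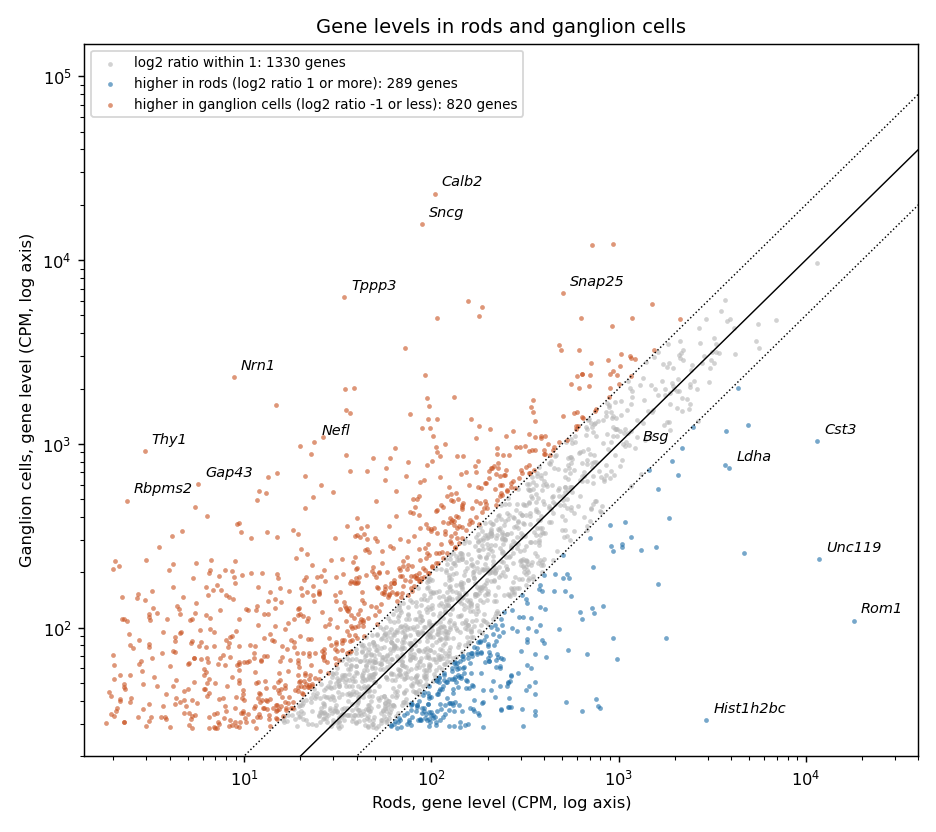
Level of each of the 2439 genes in rods (x axis) and ganglion cells (y axis), in CPM on log axes; the solid line marks equal levels and the dotted lines a 2-fold difference. The cloud thins upward and to the left, towards Calb2, Sncg, Nrn1 and Thy1, and only a few genes such as Rom1, Unc119 and Hist1h2bc lie far to the lower right; the lower edge is the 28.5 CPM that 100 counts make in ganglion cells.

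The gene furthest towards rods with an Ensembl identifier was Rom1. Rom1, a tetraspanin of the outer segment disc rim, had 997568 counts in rods and 383 in ganglion cells, or 17994 and 109 CPM. Its log2 ratio was 7.37 (interval 7.22 to 7.51). Rom1 was the only gene of the 11 outer segment genes in the table to reach 100 counts in ganglion cells, and 9 of the 11 were at 0 there. Rom1 was also at 1596 CPM or more in bipolar cells, Müller glia and cones, and at 133 CPM in amacrine cells. Unc119, a carrier that returns lipid-modified transducin to the outer segment, had 652698 and 829 counts and a log2 ratio of 5.64 (5.54 to 5.74). Elovl4, which makes the very long fatty acids of photoreceptor membranes, had 41893 and 144 counts and a ratio of 4.20.

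The other genes furthest towards rods had varied roles. Hist1h2bc, a histone H2B gene with near-identical copies whose reads may be divided between them, had a ratio of 6.55. Hmgb2 and Hmgn1, which bind DNA and nucleosomes, were at 4.36 and 4.20, and Ddx5, an RNA helicase, was at 4.45. Ebpl was at 4.36, Scand1 at 4.19, Ptp4a3, a phosphatase, at 3.85 and Mat2a, which makes S-adenosylmethionine, at 3.73. Several of these genes were also high in cones. Mat2a was at 531 CPM there and 527 CPM in rods, Hmgn1 at 3759 and 4662 CPM, and Hist1h2bc at 2262 and 2932 CPM. Ebpl, Hmgb2 and Ptp4a3 were more particular to rods than Mat2a, Hmgn1 and Hist1h2bc. Ebpl was at 1801 CPM in rods and 549 CPM in bipolar cells, its next highest class. Cones were the next highest class of Hmgb2, with 773 CPM in rods and 213 CPM in cones, and of Ptp4a3, with 980 and 274 CPM. Cst3, the secreted protease inhibitor cystatin C, was at 3.48 with 11472 CPM in rods and 1031 CPM in ganglion cells. Cst3 is not a rod gene by these columns, since Müller glia held it at 11998 CPM, and the part of glial RNA in its rod value was not tested.

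The genes furthest towards ganglion cells were led by Thy1, Nrn1 and Calb2. Thy1, whose product was used to retain cells for 1 library and which is therefore no independent difference, had 163 counts in rods and 3194 in ganglion cells, a log2 ratio of -8.27. Nrn1 (neuritin), a neurite growth factor, had 487 and 8076 counts and a ratio of -8.03. Calb2, the calcium buffer calretinin, had 5778 and 80769 counts, or 104.2 and 23012 CPM, and a ratio of -7.79 (-7.83 to -7.75). Each of these was more than 200-fold higher in ganglion cells. Rbpms2, an RNA-binding protein that marks ganglion cells, was at -7.70 with 131 and 1726 counts. Tppp3, a tubulin-binding protein, was at -7.51, and the synuclein gene Sncg was at -7.47. The growth cone protein Gap43 was at -6.74, Emb (embigin), of the basigin family, at -6.70, the apoptosis repressor Nol3 at -6.80, complexin 1 (Cplx1) at -6.65 and Sult4a1, a sulfotransferase of neurons, at -6.38. Of these genes, only Thy1, Calb2 and Sncg were above 300 CPM in amacrine cells.

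Axonal cytoskeleton genes above the minimum were mostly higher in ganglion cells. Of 10 neurofilament and axonal cytoskeleton genes above the minimum, of 27 in the table, 9 were higher in ganglion cells and none in rods. Over all genes compared, 33.6% were higher in ganglion cells. The median log2 ratio of the 10 genes was -5.01, against -0.44 over all genes compared. The light neurofilament chain Nefl had 1310 counts in rods and 3596 in ganglion cells, or 23.6 and 1025 CPM, a log2 ratio of -5.44. The medium chain Nefm was at -4.54 and alpha-internexin (Ina) at -5.12. The stathmins, which sequester tubulin, were at -5.26 for Stmn1 and -4.90 for Stmn3, and Stmn4 was 64.2-fold higher in ganglion cells. Map1a was at -4.08 and Marcksl1 at -4.81. Thymosin beta 4 (Tmsb4x), which binds actin monomers in most cells, was the exception at -0.70. Only 3 of the 10 genes reached the same CPM minimum in rods. Of these 3, 2 were higher in ganglion cells, against 408 of all 1968 genes with that minimum. The values thus rest mostly on genes that were low in rods and could enter only if higher in ganglion cells. Of the 27 genes, 20 reached 100 counts in rods and 11 in ganglion cells, so the 10 do not describe the whole list.

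Tubulins divided by isotype. Of 10 tubulins, 5 were higher in ganglion cells and none in rods, with a median of -1.22. With the same CPM minimum 3 of 8 were higher in ganglion cells, with a median of -0.48. Over all 1968 genes with that minimum, 408 were higher there and the median was -0.15. The beta tubulins Tubb2b (-4.55), Tubb4a (-4.24), Tubb2a (-3.20) and Tubb3 (-2.60) and the alpha tubulin Tuba1a (-1.91) were the 5. Tuba1b had 2051 CPM in rods and 1947 CPM in ganglion cells, a log2 ratio of 0.07. Tubb4b was at -0.12 and Tubb5 at -0.53, so the difference was in particular isotypes and not in all. Among 9 motor and dynactin genes, 4 were higher in ganglion cells and none in rods, namely Dctn3 (-2.62), Dynll2 (-2.59), Klc1 (-2.12) and Dynlrb1 (-1.75). Dynll1, a light chain close to Dynll2, was at 0.56. The motor genes are few, and their count is near the 33.6% of all genes compared that were higher in ganglion cells.

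Most calcium-binding and vesicle release genes above the minimum were higher in ganglion cells. All 9 calcium-binding genes above the minimum were higher there, with a median of -3.90, against 33.6% of all genes compared. The 5 left by the same CPM minimum in both columns were also higher there. Of 17 listed genes in the table, 12 reached 100 counts in rods and 10 in ganglion cells. The minimum left out recoverin (Rcvrn), with 814732 counts in rods and 0 in ganglion cells, and Hpca, with 91 and 186. The 9 were Calb2, S100a10 (-5.85), the neuronal calcium sensor Vsnl1 (-5.62), parvalbumin (Pvalb, -5.35), the calmodulin genes Calm3 (-3.90) and Calm2 (-3.72), Ncald (-2.16), Hpcal1 (-1.65) and Calb1 (-1.50). Of 11 vesicle release genes 9 were higher in ganglion cells and 1, Unc119, was higher in rods, with a median of -2.83. With the same CPM minimum 6 of 8 were higher in ganglion cells and the median was -1.60. Over all 1968 genes with that minimum, 408 were higher in ganglion cells and the median was -0.15. Snap25, a SNARE of the presynaptic membrane, had 28013 and 23214 counts, or 505 and 6614 CPM, a log2 ratio of -3.71. Its vesicle partner Vamp2 was at -1.49, Rab3a at -2.83, Syt4 at -4.57 and Stx7 at -3.34. Napa, which takes SNARE complexes apart, was at -0.32. Of 26 voltage-gated channel genes in the table, Kcnip4 (-5.32) and Kcna6 (-4.45) reached the minimum. Neither reached the same CPM minimum in rods, so a gene of their rod level could enter only if it was higher in ganglion cells.

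Glycolysis had more genes higher in rods than in ganglion cells. Of 12 glycolysis and lactate transport genes above the minimum, 5 were higher in rods and 2 in ganglion cells, with a median of 0.48. Over all genes compared, 11.8% were higher in rods and 33.6% in ganglion cells, with a median of -0.44. Of 22 listed genes in the table, 21 reached 100 counts in rods and 12 in ganglion cells. Ldha, the lactate dehydrogenase subunit that favours lactate, had 215800 and 2591 counts, or 3893 and 738 CPM, and a log2 ratio of 2.40 (2.34 to 2.46). Ldhb, the subunit that favours pyruvate, was at -1.81 with 217 CPM in rods and 762 CPM in ganglion cells. The 2 subunits of the same enzyme thus differed in opposite directions. Pfkl was at 2.01, Eno1 at 1.97, pyruvate kinase (Pkm) at 1.67 and Pgam1 at 1.20, while Tpi1 was at -1.40. Aldoa, Aldoc, Gapdh, Pgk1 and Bsg lay between 0.33 and 0.55.

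The sodium-potassium ATPase divided by subunit. The beta 2 subunit Atp1b2 was higher in rods, with 84.6 CPM against 31.3 CPM and a ratio of 1.43 (1.16 to 1.72). On its single Ensembl isoform alone the counts were 48 and 109 and the ratio was -5.16, since the other isoforms, which hold most of the rod counts, have no Ensembl identifier. The beta 1 subunit Atp1b1 was higher in ganglion cells, with 9.16 CPM in rods against 368 CPM and a ratio of -5.33, and Atp1b3 was at -2.09. No listed alpha subunit reached 100 counts in both columns.

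Among genes above the minimum, the cilium and splicing groups also had more genes higher in rods than in ganglion cells. Of 15 genes of the cilium and its transport, 6 were higher in rods and 2 in ganglion cells, with a median of 0.89. Beside Unc119 they were the BBSome subunit Bbs5 (3.43), the intraflagellar transport proteins Ift43 (2.83) and Ift57 (1.33), and the small GTPases Arl6 (2.66) and Arl3 (1.01), the latter of which releases cargo from Unc119. Cetn3 (-1.61) and Ift20 (-1.34) were higher in ganglion cells. Of 10 splicing regulators above the minimum 3 were higher in rods and none in ganglion cells, with a median of 0.51. They were Srsf6 (1.79), Srsf3 (1.53) and Hnrnpk (1.35). Over all genes compared, 11.8% were higher in rods. Of the 48 splicing regulators in the table, 30 reached 100 counts in rods and 16 in ganglion cells. Among those that reached it in ganglion cells only were Rbfox2 (79 and 374 counts), Rbfox1 (22 and 163) and Elavl3 (92 and 134), all higher there in CPM. The count of 10 thus does not describe the whole list.

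The large housekeeping groups were near the middle. Over all genes compared, 11.8% were higher in rods and 33.6% in ganglion cells. When scaled to column totals, the ribosomal and oxidative phosphorylation groups had fewer calls than these shares in both directions. Of 77 cytosolic ribosomal protein genes 2 were higher in rods and 6 in the other class, with a median of -0.04, but the balance turned to 6 and 4 with the trimmed mean and to 8 and 2 when scaled to the counts on these genes. Rpl22 was at 1.92 and Rpl17 at -2.80. Ribosomal protein genes have many near-identical copies, so their single values are uncertain. Of 79 oxidative phosphorylation genes 3 were higher in rods and 14 in the other class, with a median of -0.37, and this became 7 and 7 with the trimmed mean and 10 and 5 when scaled to the counts on these genes. Sdhc, a subunit of complex II, was at 1.33, Atp5b, a subunit of the ATP synthase, at 1.26 and Cox6b2, a subunit of complex IV, at -3.71. Of 18 genes for 14-3-3 proteins, ubiquitin and chaperones 1 was higher in rods, the chaperonin subunit Cct3 (1.78), and 7 in ganglion cells, at a median of -0.38 that became 0.06 when scaled to the counts on these genes. These 7 are also near the share of 33.6% over all genes. Among them were Uchl1 (-5.70), a ubiquitin hydrolase abundant in neurons, Hspb1 (-5.35) and Ywhah (-3.76). Of 8 clathrin and endocytosis genes 4 were higher in ganglion cells, led by the light chain Cltb (-3.02), and 1 in rods, Bin1 (1.17). The ratio of Bin1 turned to -2.24 when only isoforms with an Ensembl identifier were summed, since its main rod isoform has none. The immediate early gene Ier3 was at 3.23, and the transcription factor genes Klf6 and Klf7 were at -0.76 and -1.74.

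**Figure D2:**
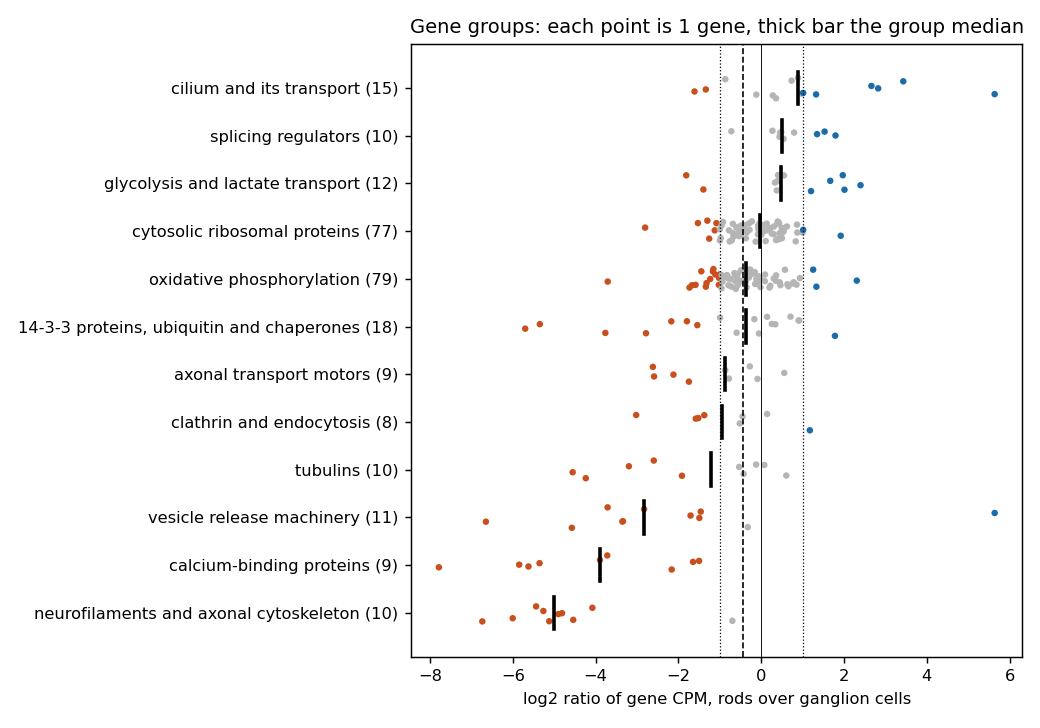
Log2 ratio of gene CPM, rods over ganglion cells (x axis), for the members of 12 gene groups, with the number of genes above the minimum in brackets; blue and orange points lie past the dotted lines at 1 and -1, thick bars are group medians and the dashed line is the median of -0.44 over all 2439 genes. Cytoskeleton (-5.01) and calcium-binding (-3.90) medians lie far left and the cilium median (0.89) furthest right. Medians cover only genes above the minimum, which is lower in rods in CPM, and not the whole lists. The balance of the ribosomal and oxidative phosphorylation groups turned with the scaling.

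Rods and ganglion cells mostly shared the most abundant isoform of a gene, and a minority of genes exchanged it. Among 1504 genes with 2 or more isoforms, 88 (5.85%) had a dominant isoform switch, meaning that the most abundant isoform differed and that the share of the gene's counts taken by 1 of those isoforms differed by at least 50 percentage points. The most abundant isoform differed in 236 genes and was the same in 1268. Over all 1504 genes the median of the largest difference in share was 9.49 points, with quartiles of 3.64 and 20.7. The share of switched genes was 8.33% of genes with 100 to 200 counts in ganglion cells, 6.03% with 200 to 500 and 3.77% with 500 or more. Of the 88 switched genes, 15 (17.0%) were higher in rods, 38 (43.2%) in ganglion cells and 35 (39.8%) neither. Over all 1504 genes these shares were 11.2%, 34.3% and 54.5%, so switched genes differed in level somewhat more often, and no test of this was made.

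The isoforms of the 88 genes differed by a skipped exon in 37 genes, by the first exon in 34 and by the last exon in 20, with some genes counted under more than 1 kind. Fewer used another 5′ (8 genes) or 3′ (2 genes) splice site, or differed by a retained intron (2 genes). Both isoforms had an Ensembl identifier in 54 genes, and in 29 of these 54 they differed in coding exons. The isoform of rods was the longer in 44 genes and that of ganglion cells in 43.

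Pyruvate kinase gave a switch at great depth. Pkm makes the last step of glycolysis, and its transcripts carry either of a pair of alternative exons of equal length, which give the M1 and M2 forms of the enzyme. The downstream exon, that of M2, was in 189592 of 206868 informative counts in rods (91.6%, 91.5 to 91.8) and in 7 of 4122 in ganglion cells (0.170%, 0.0683 to 0.350). The upstream exon, that of M1, was in 8.35% and 99.8%. Rods thus used M2 and ganglion cells almost wholly M1, in a gene whose level was itself higher in rods. Amacrine cells were between, with the M2 exon at 38.6%, while cones, bipolar cells and Müller glia were at 90.6% or above. The exons lie on the plus strand of chromosome 9 at chr9:59675029-59675195 and chr9:59675568-59675734 of GRCm38, and both are coding. They are shown to compare the sequence that is exchanged, with capitals at the 64 of 167 positions where they differ, which leaves 61.7% the same. Sequences here are from the GENCODE M21 transcripts.
Pkm upstream exon (M1), more in ganglion cells: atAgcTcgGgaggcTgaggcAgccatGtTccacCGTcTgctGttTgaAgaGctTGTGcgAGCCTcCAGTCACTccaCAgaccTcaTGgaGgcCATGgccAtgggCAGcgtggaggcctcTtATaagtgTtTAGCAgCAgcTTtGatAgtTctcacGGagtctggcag
Pkm downstream exon (M2), more in rods: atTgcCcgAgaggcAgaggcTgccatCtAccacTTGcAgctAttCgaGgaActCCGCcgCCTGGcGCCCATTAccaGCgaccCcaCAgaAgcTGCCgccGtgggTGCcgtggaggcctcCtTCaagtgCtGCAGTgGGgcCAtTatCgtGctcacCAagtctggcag

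The largest switch was in Atp1b2, whose protein is the beta 2 subunit of the sodium-potassium pump and a cell adhesion molecule. The rod isoform had 4578 of 4692 counts in rods (97.6%) and 0 of 110 in ganglion cells, and it has no Ensembl identifier. The ganglion cell isoform had 48 and 109 of these counts, a difference in share of 98.1 points. The rod isoform carries 2 neighbouring short coding exons on the minus strand of chromosome 11, which the ganglion cell isoform lacks. The 27 nt exon at chr11:69602304-69602330 was included in 4644 of 4692 rod counts, or 98.98%, and 0.909% of ganglion cell counts. The 21 nt exon at chr11:69601924-69601944 was at 97.6% and 0%, where 0 of 110 counts allows up to 3.30%. Cones resembled rods at 99.1% and 94.0%, bipolar cells were at 29.9% and 10.1%, and amacrine cells were at 3.61% and 0.490%. Both lengths are multiples of 3. The exons are shown in capitals with 12 coding bases on each side, and the end of the first runs into the second.
Atp1b2 27 nt exon, more in rods: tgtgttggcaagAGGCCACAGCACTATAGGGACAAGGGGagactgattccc
Atp1b2 21 nt exon, more in rods: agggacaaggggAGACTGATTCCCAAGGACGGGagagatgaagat

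A switch in Arl6 added a short exon to a gene of the BBSome. Arl6 is the GTPase that recruits the BBSome to membranes, and its long form is known from photoreceptors. A 13 nt exon, on the minus strand at chr16:59618666-59618678, was in 45299 of 45992 counts in rods (98.5%, 98.4 to 98.6) and in 121 of 460 in ganglion cells (26.3%, 22.3 to 30.6). The coding sequence annotated with the exon is 579 nt and without it 558 nt. The exon was at 98.2% in bipolar cells and 98.9% in cones, so ganglion cells were the lowest of the 6 classes, with Müller glia at 57.9% and amacrine cells at 66.6%.
Arl6 13 nt exon, more in rods: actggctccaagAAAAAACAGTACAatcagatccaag

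Basigin differed in its isoform with little difference in level. Bsg is a chaperone and partner of lactate transporters, and its long form with an additional immunoglobulin domain is known from photoreceptors. A coding exon of 348 nt, at chr10:79708697-79709044, was in 58491 of 68209 counts in rods (85.8%) and in 9 of 3328 in ganglion cells (0.270%, 0.124 to 0.513). The level of the gene was 1230 and 948 CPM. Cones were at 87.2%, bipolar cells at 62.9%, amacrine cells at 19.5% and Müller glia at 2.39%. The related gene Nptn (neuroplastin) also switched, between 3′ splice sites, with the rod isoform at 231 of 350 counts in rods and 0 of 176 in ganglion cells.

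Several switched genes exchanged their first exon. Prkcz encodes the atypical protein kinase C zeta, and an inner promoter is known to give a brain form, PKMzeta, that lacks the regulatory domain. The isoform with a coding sequence of 1776 nt had 3966 of 4171 counts in rods and 0 of 530 in ganglion cells, where all counts fell on the isoform with 1227 nt of coding sequence. Its share was 97% in cones and 94% of 50 counts in Müller glia, against 13% in bipolar cells and 2% in amacrine cells. Faim, an inhibitor of death receptor signals with a longer form known from neurons, had the isoform with the 603 nt coding sequence at 8.84% in rods and 99.8% in ganglion cells. Guk1, the guanylate kinase that recycles nucleotides of the cGMP cycle, had the rod isoform at 63678 of 114613 counts (55.6%) in rods and 1 of 2386 (0.0419%) in ganglion cells. Znhit1, Tpd52 and Pnrc1 exchanged first exons too, with differences of 56.8, 63.2 and 89.3 points.

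The other switched genes named by difference or depth had varied roles. Bin1, which bends membranes in endocytosis, had its rod isoform at 6465 of 9093 counts in rods and 10 of 255 in ganglion cells, where 244 counts fell on the isoform with a further 129 nt exon. That exon was in 3.81% of rod counts and 95.7% of ganglion cell counts. Myl6, a light chain of non-muscle myosin, skipped a 45 nt exon in ganglion cells, where 892 of 7445 counts (11.98%) had it, and included it in 28894 of 31075 (93.0%) in rods. Cdc42, a GTPase that controls actin, exchanged its last exon, with the rod isoform at 69.4% and 7.27%. The tropomyosin gene Tpm3 exchanged both an internal and the last exon. Vamp1, a SNARE of synaptic vesicles, had its rod isoform at 334 of 354 counts in rods and 19 of 229 in ganglion cells, and the isoforms differed by a retained intron. Arid4a, a chromatin protein, had isoforms without an Ensembl identifier on both sides, at 1444 of 1481 counts in rods and 0 of 135 in ganglion cells. March1, Amz2, Ppp1r21, Tsg101 and Cuta were switched as well.

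The Tpm3 exons are shown as a further pair of equal length, exchanged less strictly than that of Pkm. The exon of 76 nt at chr3:90088401-90088476 was in 66.2% of rod and 6.17% of ganglion cell counts, and that at chr3:90089048-90089123 was in 48.2% and 94.0%. An isoform with both exons held 215 of 1495 counts in rods (14.4%) and 1 of 632 in ganglion cells, while no isoform of Pkm in the table had both of its exons. Both Tpm3 exons are coding, on the plus strand, and the same at 39 of 76 positions, with capitals where they differ.
Tpm3 upstream exon, more in rods: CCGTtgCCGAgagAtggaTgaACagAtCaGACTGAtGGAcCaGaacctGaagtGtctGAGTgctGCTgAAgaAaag
Tpm3 downstream exon, more in ganglion cells: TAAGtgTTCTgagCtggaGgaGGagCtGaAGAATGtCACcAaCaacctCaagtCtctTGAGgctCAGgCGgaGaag

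Genes with exons known from neurons or photoreceptors did not all switch. Of 58 listed genes 19 were above the minimum, 17 of these had 2 or more isoforms and 9 were switched. The list was drawn up with earlier results of these data known, so its count is no independent measure. Clathrin light chain a (Clta) had a largest difference of 45.3 points, with the leading isoform of ganglion cells at 6.37% in rods and 51.6% in ganglion cells. Tecr was at 31.4 points, Apbb1 at 28.3, Tpm1 at 26.6, Gnas at 23.4, Klc1 at 16.2 and Cltb at 14.7. Snap25 had 1 isoform at 96.8% in rods and 92.9% in ganglion cells, a difference of 3.90 points, although its level differed by -3.71 on the log2 scale.

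**Figure D3:**
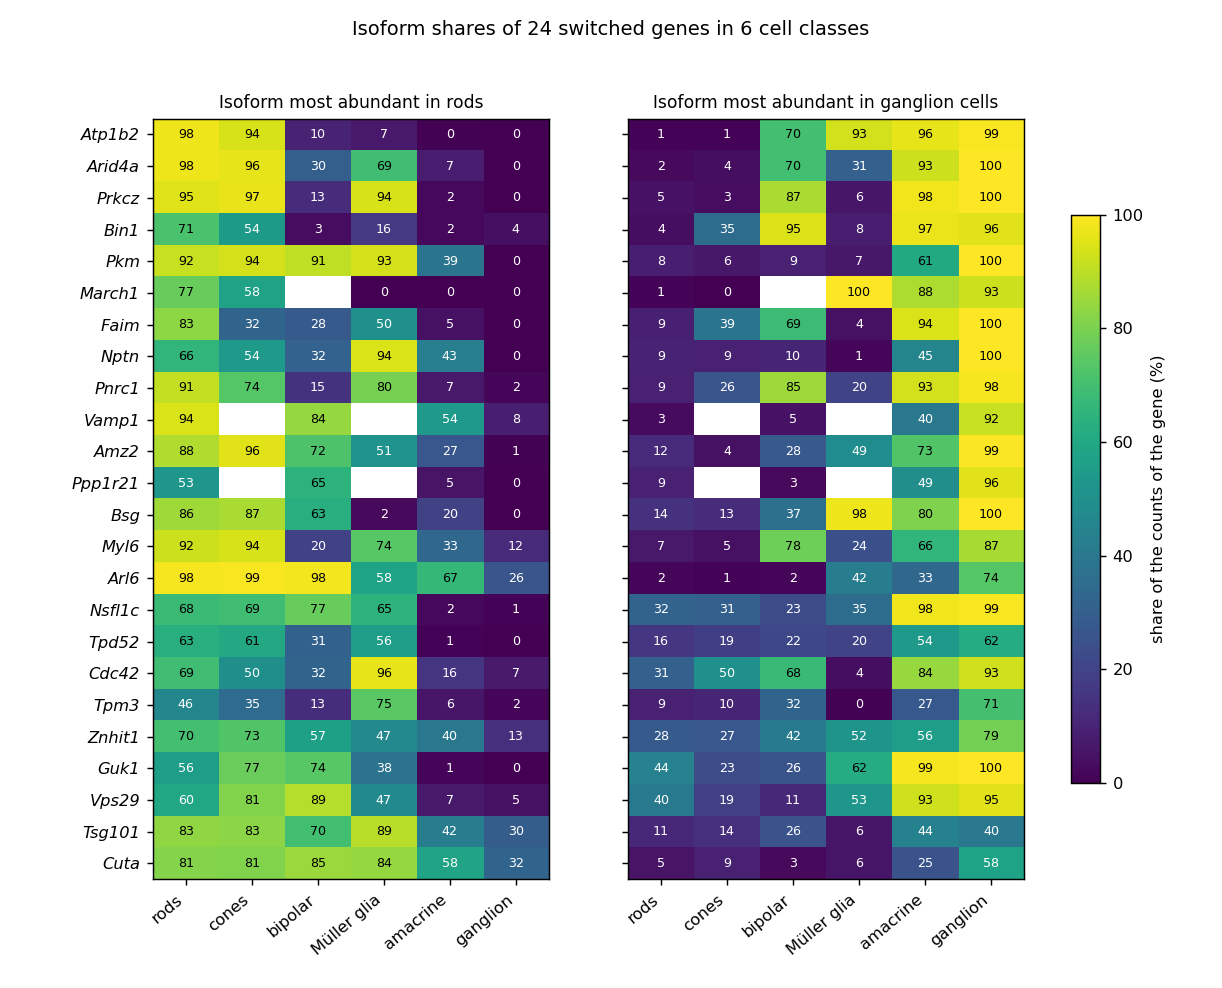
Share of the gene's counts (colour and number, in percent) taken by the isoform most abundant in rods (left) and in ganglion cells (right), for 24 switched genes in rows and 6 cell classes in columns; cells with fewer than 20 counts are blank. Cone columns resemble the rod columns in most rows and amacrine columns resemble the ganglion cell columns, while bipolar cells and Müller glia follow either side by gene.

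The other classes fell on different sides of these switches. Cones had the rod isoform as their most abundant in 59 of the 69 switched genes with at least 100 counts there, and the ganglion cell isoform in 7. Amacrine cells had the ganglion cell isoform in 60 of 88 and the rod isoform in 20. Bipolar cells had the rod isoform in 50 of 86 and the ganglion cell isoform in 27, and Müller glia in 39 and 13 of 60. These are counts over genes chosen for their difference between rods and ganglion cells.

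Single exons gave the same comparison at finer grain. Inclusion of an internal exon was the share of counts from isoforms that hold it among those that hold it or join across it. Exons skipped by at least 1 isoform and with at least 100 such counts in each column were used. Of 1329 such exons in 814 genes, 120 (9.03%) were included more in rods by at least 25 points and 60 (4.51%) more in ganglion cells. The median inclusion was 89.3% in rods and 90.21% in ganglion cells. The 180 exons lay in 138 genes, 42 of which were switched by the rule above. Exons with a length that is a multiple of 3 made up 41.7% of those included more in rods, 35.0% of those included more in ganglion cells and 35.3% of the others. Of 50 exons of at most 27 nt, 11 (22%) were past 25 points, against 13.2% of longer exons.

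**Figure D4:**
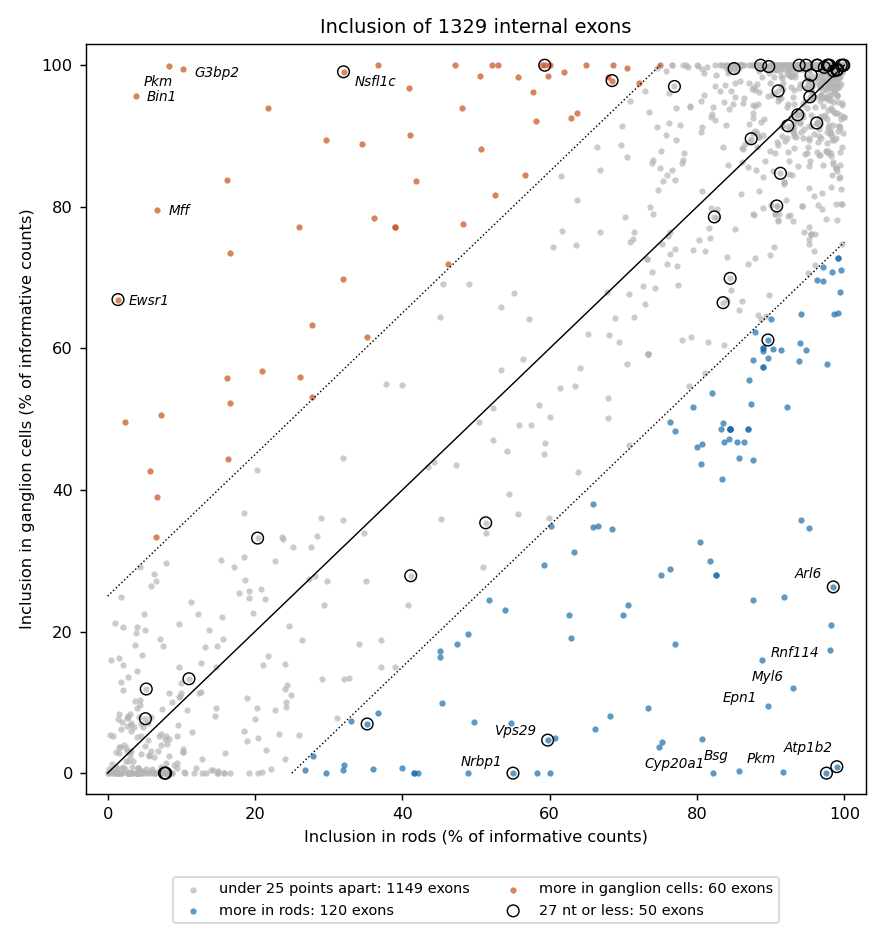
Inclusion of each of 1329 internal exons in rods (x axis) and ganglion cells (y axis), in percent of informative counts; dotted lines mark 25 points of difference and black rings mark the 50 exons of at most 27 nt. Many exons lie near the corners at full inclusion or full skipping; the exons of Atp1b2, Pkm and Bsg lie at the lower right, and the other exon of Pkm and those of Bin1 and G3bp2 at the upper left.

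The short exons past 25 points were 7 towards rods and 4 towards ganglion cells. Vps29, a subunit of the retromer, carried a 12 nt exon directly after its start codon, at chr5:122356794-122356805, in 11021 of 18452 counts in rods (59.7%) and 92 of 1972 in ganglion cells (4.67%). Nrbp1, a pseudokinase, had a 24 nt exon at chr5:31246322-31246345 in 55.0% and 0% of counts. Apbb1 (Fe65), an adaptor of the amyloid precursor protein, had a 6 nt exon at chr7:105565946-105565951 in 35.2% and 6.94%. On the other side, Nsfl1c (p47), a cofactor of the p97 ATPase, included a 6 nt exon at chr2:151502455-151502460 in 3797 of 11858 counts in rods (32.0%) and 855 of 863 in ganglion cells (99.1%). Ewsr1, an RNA-binding protein, included an 18 nt exon at chr11:5091460-5091477 in 1.41% and 66.9%. Pts, an enzyme of tetrahydrobiopterin synthesis, included a 23 nt exon at chr9:50525262-50525284 in 59.3% and 100%. The other short exons were the 2 of Atp1b2, that of Arl6, a 23 nt exon of 2700062C07Rik at 89.6% and 61.2%, and a 26 nt exon of Hnrnpc, not wholly coding, at 68.5% and 97.8%. The exons are shown in capitals in their coding context, to let the added letters be read.
Vps29 12 nt exon, more in rods: atgGCTGGGCACAGAttggtgttggta
Nrbp1 24 nt exon, more in rods: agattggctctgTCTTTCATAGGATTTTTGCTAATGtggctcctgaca
Apbb1 6 nt exon, more in rods: ggacagtggaagAGAGAGggactttgccta
Nsfl1c 6 nt exon, more in ganglion cells: ggagggacagagGAGCAGgttttatgctgg
Ewsr1 18 nt exon, more in ganglion cells: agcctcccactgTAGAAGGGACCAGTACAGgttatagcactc
Pts 23 nt exon, more in ganglion cells: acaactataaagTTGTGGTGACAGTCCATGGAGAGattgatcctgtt

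Exons with large differences also included longer ones. Epn1 (epsin 1), a clathrin adaptor, included a 75 nt coding exon in 1087 of 1213 counts in rods (89.6%) and 10 of 105 in ganglion cells (9.52%, 4.66 to 16.8). Cyp20a1, a cytochrome P450, included a 167 nt coding exon in 82.2% of counts in rods and 0 of 100 in ganglion cells. Rnf114, a ubiquitin ligase, included a 151 nt coding exon in 98.0% and 17.4%. These 3 were on the rod side. G3bp2, a stress granule protein, included a 99 nt coding exon in 449 of 4383 counts in rods (10.2%) and 169 of 170 in ganglion cells (99.4%). The G3bp2 exon was at 68.2% in amacrine cells and 29.5% in bipolar cells. Epn1 and G3bp2 exons are shown because both lengths are multiples of 3 and both are wholly coding. They lie on the plus strand at chr7:5093312-5093386 and on the minus strand at chr5:92063337-92063435.
Epn1 75 nt exon, more in rods: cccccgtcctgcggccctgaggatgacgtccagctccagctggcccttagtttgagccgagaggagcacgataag
G3bp2 99 nt exon, more in ganglion cells: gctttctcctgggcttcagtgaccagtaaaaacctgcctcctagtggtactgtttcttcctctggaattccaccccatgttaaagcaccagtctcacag

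Across the other classes the exons followed the same sides as the isoforms. Cones were nearer to rods for 144 of 153 exons past 25 points that had enough counts, Müller glia for 114 of 147 and bipolar cells for 131 of 178. Amacrine cells were nearer to ganglion cells for 116 of 180. These exons were chosen for their difference between rods and ganglion cells. Their inclusion comes from the same isoform counts as the switches, so it is no separate measure. Exons of the same gene can rest on the same counts, as in Rbbp4, so these counts of exons are not counts of independent differences. Ewsr1 showed the division most plainly, with the 18 nt exon at 66.9% in both amacrine and ganglion cells and at 1.86% or less in cones, bipolar cells, Müller glia and rods. In Vps29 the 12 nt exon was higher in bipolar cells (89.0%) and cones (81.1%) than in rods, and amacrine cells (7.35%) were near ganglion cells.

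**Figure D5:**
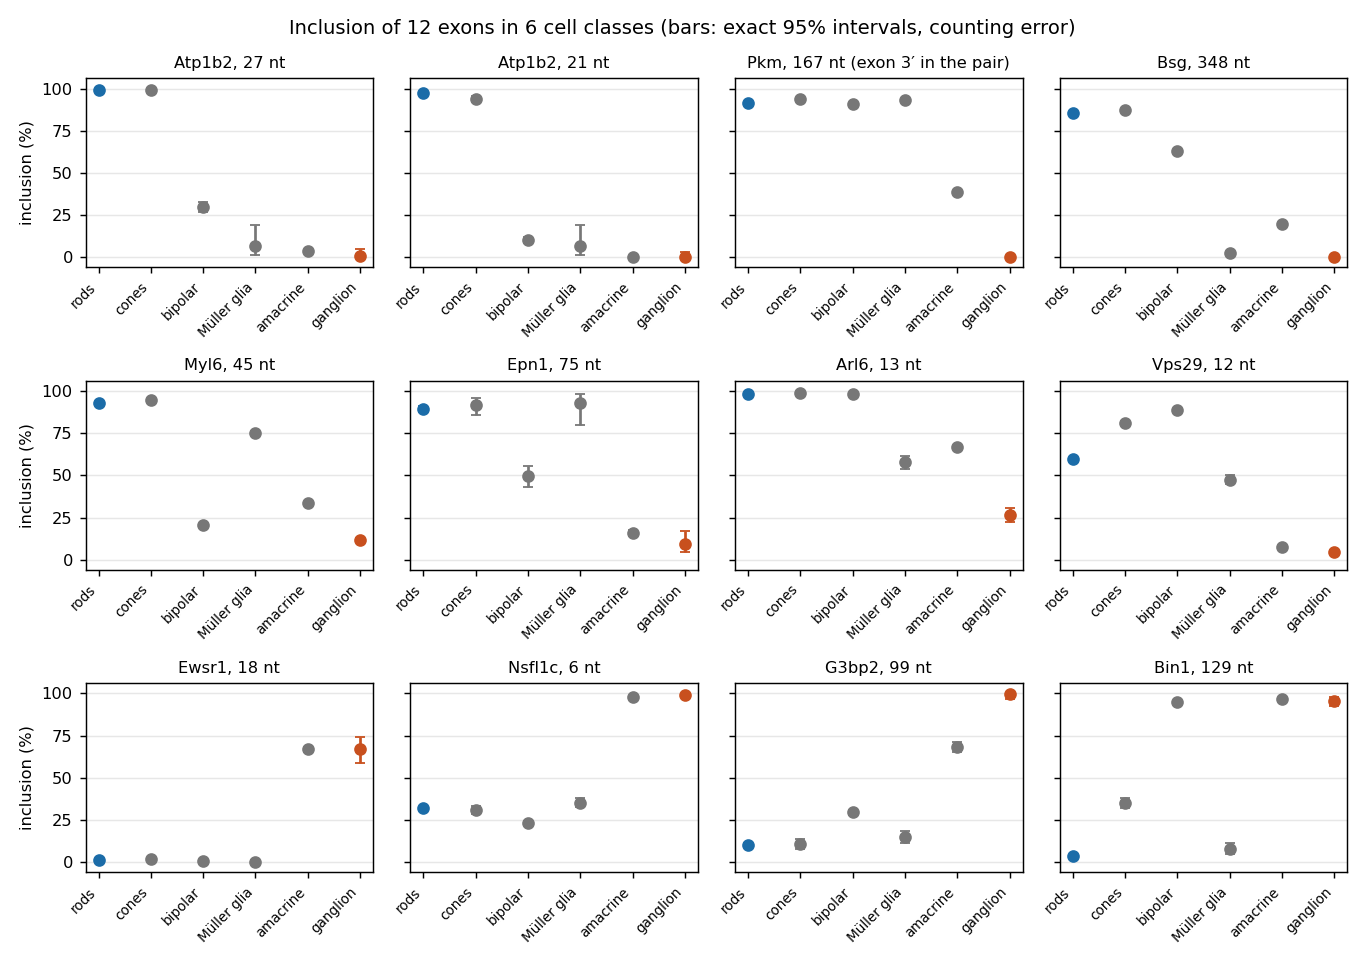
Inclusion in percent (y axis) of 12 exons in rods, cones, bipolar cells, Müller glia, amacrine cells and ganglion cells (x axis), with rods in blue and ganglion cells in orange and bars for exact 95% intervals of counting error. The short exons of Atp1b2 stand high in rods and cones only, the M2 exon of Pkm is low in ganglion cells and intermediate in amacrine cells, and amacrine and ganglion cells stand together above the rest for Ewsr1 and Nsfl1c.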

How the data were processed

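The authors deposited counts per isoform in 6 cell class columns and FLAIR transcript models, per the file headers and contents. The build is mm10 per the submitters' processing notes, and 115691 of 122601 junctions (94.4%) of the models were in GENCODE M21. Aligner, read filters, cell typing, the libraries in each column and whether counts are reads or molecules are not given in the sources used here. An isoform without a FLAIR model took its structure from M21 by identifier. Positions were deposited as coordinates, in no other unit.

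Isoform counts were summed per gene and scaled to 1000000 per column. Log2 ratios carry exact conditional binomial and shares exact Clopper-Pearson 95% intervals; the limit for a count of 0 in the RGC column is 3 counts, 0.855 CPM. Scripts were tested on simulated data. Computation used Python 3.11.15, scipy 1.17.1, edgeR 4.0.16 (scaling factors only) and DESeq2 1.42.0 (size factors only). Genes named were the 12 highest and 12 lowest ratios, the listed genes, the 12 switches with the largest difference and 12 with the most counts, the 12 exons with the largest difference and each called exon of at most 27 nt. Members, lists and rules were chosen with earlier results of these data known. Some genes that these rules give are not reported here. No column was left unused.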

Additional observations from a re-analysis of the deposited data

How the results depend on the processing

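No paired analysis was possible because each class has a single pooled column without library or replicate numbers. With a minimum of 20 counts, 841 genes were higher in rods and 1498 in ganglion cells of 4470, 402 genes were switched, the median largest difference was 15.1 points, and 367 and 286 exons were included more in rods and in ganglion cells. With a minimum of 500 these were 41 and 402 of 1057 genes, 20 switches, 5.80 points, and 36 and 15 exons. A log2 ratio of 2 left 76 and 427 genes. At equal depth, the mean of 20 draws was 410.05 genes higher in ganglion cells and 53.75 switches. The same CPM minimum in both columns, chosen after seeing the data, gave 408 and 52. Scaling to the counts on the compared genes, also chosen after seeing the data, gave 497 genes higher in rods. Switches numbered 186 at 25 points and 24 at 75 points. Exons numbered 256 and 197 at 10 points and 30 and 15 at 50 points. With Ensembl isoforms only, 53 exons were included more in rods and 44 in ganglion cells, of 450, and the log2 ratio of Bin1 turned to -2.24. That of Atp1b2, which then had only 48 counts in rods and so fell under the minimum, was -5.16. Cst3 and Map1a had no counts on Ensembl isoforms. No other named ratio of 1 or more in size that could be computed turned its sign. In Atp1b2, March1 and Tsg101 the difference in share became 0 there, since a single Ensembl isoform remained. The other 21 comparisons across settings stayed within 1.5 times their value. Depth limits the ganglion cell side: 100 counts there give wide intervals, and the share of switched genes was highest among genes of low depth.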

Other observations

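Some of the genes that the minimum leaves out show the classes at their furthest apart. There were 5028 genes with at least 100 counts in rods only and 116 in ganglion cells only. As 100 counts are 1.80 CPM in rods and 28.5 CPM in ganglion cells, the unequal depth sets part of this imbalance. A gene at equal CPM in both classes can be among the 5028. At least 1000 counts in rods and 0 in ganglion cells were found for 255 genes. None of 20 phototransduction genes in the table reached 100 counts in ganglion cells and 18 were at 0. The 8 rod markers, of which 7 were at 0 there, were all above 0 in each of the other 4 non-rod columns, with sums from 442 CPM in amacrine cells to 28081 CPM in cones. How counts were filtered in each column is not given in the sources used here, and its part in the values of 0 was not tested. Pde6g, the inhibitory subunit of the rod phosphodiesterase, had 1662993 counts in rods, at least 35096-fold higher against the limit of 3 counts in the RGC column. Phosducin (Pdc), recoverin (Rcvrn), the cyclase activators Guca1a and Guca1b, arrestin (Sag), the disc rim protein Prph2, Aipl1 and transducin alpha (Gnat1) were at 0 in ganglion cells as well.

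On the ganglion cell side, Fkbp1b, a channel-binding immunophilin, had 83 counts in rods and 1230 in ganglion cells, 234-fold higher there in CPM (interval 187 to 296). Sptssb, a subunit of serine palmitoyltransferase, had 19 and 664 counts, 552-fold higher (351 to 923). The neuropeptide gene Gal had 5 and 255 counts, 806-fold higher (341 to 2502). Chrna6, a nicotinic receptor subunit, had 34 and 258 counts. These genes were picked after their values were seen.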
